A study of Bos taurus with 9 samples.

Results

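The hypoxia-inducible factors and the enzymes that sense oxygen for them were followed at the transcript level while bovine ear fibroblasts (BEFs) were turned into chemically induced adipocyte-like cells (CiADCs). The group holds 10 of the 21512 genes in the deposited table. They were chosen by gene symbol, with no value or threshold in the rule, but the group was proposed with the expression values of these samples known. Their values are therefore a description. No p-value is printed for them, and nothing is read from how many of them passed the test run over all genes. All 10 symbols were found, each on 1 row of the table.

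A hypoxia-inducible factor (HIF) is a pair of proteins, an alpha subunit and a beta subunit, that together bind DNA and raise transcription of genes for glucose use, blood vessel growth, iron handling and matrix. The alpha subunits are made all the time. In the presence of oxygen, prolyl hydroxylases mark them and the von Hippel-Lindau protein then directs them to destruction, so the amount of alpha protein depends mainly on its breakdown and not on its transcript. Transcripts of some prolyl hydroxylases are themselves raised by the factors, which closes a feedback loop. In fat tissue, EPAS1 is known from blood vessel cells and from adipocytes. RNA sequencing measures none of the protein steps.

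The study asked which genes changed as fibroblasts took up an adipocyte-like state. BEFs, the day 0 control, grew in DMEM with 10% fetal bovine serum. CiADCs-3d and CiADCs-6d were the same cells after 3 and 6 days in N2B27 medium with VPA at 500 µg/mL (a histone deacetylase inhibitor), TTNPB at 1 µM (an activator of retinoic acid receptors) and RepSox at 10 µM (an inhibitor of the TGF-beta type I receptor kinase). All groups were labelled wild type and had 3 samples. No culture held for 3 or 6 days without the compounds was among the samples, so compounds, medium and time cannot be told apart, and no label names a low-oxygen treatment or an oxygen level. The sources call the samples of a group biological repeats without saying whether they came from separate animals or inductions, so p-values measure the spread between these samples, which may be technical.

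Library totals lay between 18509244 and 24071580 estimated reads. Principal component 1 parted the days, at 43.2 to 48.6 and 70.2 to 72.5, and CiADCs-6d replicate 1 was not nearest to day 3 there. On principal component 2, which also parted the days, the samples numbered 1 of both CiADCs groups lay nearest to the other day. They stood at -18.8 against -46.8 and -39.8 for the other CiADCs-3d samples and at 11.6 against 38.8 and 40.7 for the other CiADCs-6d samples. Differences between the days are therefore also given without both where that moved the value. Of 12 fibroblast markers, all were above 1 CPM (counts scaled to library size) in each group, and their summed level was 86980 to 92240 CPM for BEFs, 44090 to 57870 on day 3 and 30910 to 43570 on day 6. The 14 markers of mature adipocytes summed to 29.9 to 35.2, 44.9 to 65.3 and 39.7 to 44.6 CPM. Of the 12 tested adipocyte markers, 5 were called higher and 3 lower on day 3 against BEFs, and 6 and 2 on day 6. Among all genes, 18.2% and 9.94% were called on day 3 and 21.9% and 13.4% on day 6. LPL, lipoprotein lipase, was at 3.19, 16.5 and 7.54 CPM on average, PPARG, the master regulator of fat cells, at 4.02, 12.9 and 6.26, CD36, a fatty acid carrier, at 0.0278, 3.59 and 7.96, and ADIPOQ, the gene for adiponectin, at 1.15, 4.86 and 3.97. All 4 were called higher on day 3, and all but PPARG on day 6. CD36 had only 2 counts over the BEFs group. CIDEA was called higher on both days, at 0.761, 1.71 and 2.6 CPM. On day 6 so were DGAT2, at 0.411, 0.838 and 1.67 CPM, and CEBPA, at 0.522, 0.479 and 2.41 CPM. FABP4, a fatty acid binding protein, was called lower on both days, at 10.9, 5.34 and 0.863 CPM. So was CIDEC, at 1.08, 0.169 and 0.0488 CPM, while SLC2A4 was called lower on day 3, at 1.64, 0.425 and 0.818 CPM. CIDEC had only 73, 11 and 3 counts over the groups. PLIN1 and LIPE were not called on either day. These are bulk samples, in which fewer cells of a type and less RNA per cell cannot be told apart.

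EPAS1 (NCBI Gene 282711), which encodes the alpha subunit HIF-2alpha, stood at 60.4, 60.8 and 59.0 CPM in the 3 BEFs samples. It reached 2105, 1625 and 1779 CPM on day 3 and 2438, 2439 and 2796 CPM on day 6. The groups did not overlap, and each CiADCs-6d sample lay above each CiADCs-3d sample. On the log2 scale the fitted difference from BEFs was 4.93 ± 0.13 (SE) on day 3 and 5.41 ± 0.14 on day 6, which is 30.6-fold and 42.6-fold. Among 14020 tested genes ordered from the highest to the lowest log2 fold change, EPAS1 was number 349 on day 3 and number 331 on day 6. From day 3 to day 6 it was higher by a further 0.48 ± 0.11 on the log2 scale, and by 0.57 without both samples numbered 1.

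HIF1A (281814), which encodes HIF-1alpha, stood at 348.7, 370.5 and 324.9 CPM in BEFs. It was at 1277, 837.7 and 769.3 CPM on day 3 and at 861.2, 1323 and 1141 CPM on day 6. Every CiADCs sample lay above every BEFs sample, while the days overlapped. On the log2 scale it was higher than in BEFs by 1.47 ± 0.19 (2.76-fold) on day 3 and by 1.67 ± 0.20 (3.19-fold) on day 6. The difference between the days was 0.21 ± 0.19, and it was 0.57 without both samples numbered 1, of which the CiADCs-3d sample had the highest HIF1A level of its group and the CiADCs-6d sample the lowest.

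HIF3A (507699), an alpha subunit whose short forms can restrain the others, had 2, 4 and 5 counts in BEFs, 3, 12 and 5 on day 3, and 2, 6 and 3 on day 6. It was the one gene of the 10 removed by the filter on low counts, and no fold change is given at this depth.

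**Figure D1:**
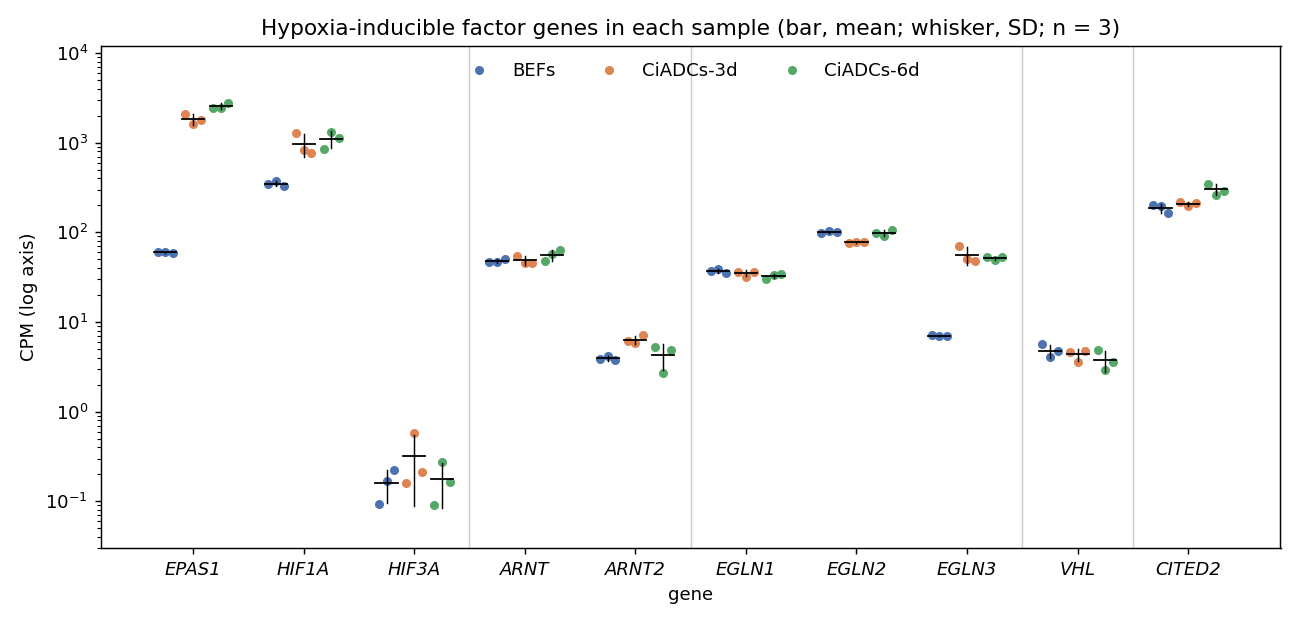
Level of the 10 genes in each of the 9 samples, as CPM on a log axis, with the mean as a bar and the SD as a whisker (n = 3 per group). Vertical lines part alpha subunits, beta subunits, prolyl hydroxylases, VHL and CITED2, and the EPAS1, HIF1A and EGLN3 points of both CiADCs groups sit above all BEFs points.

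The order of the alpha subunits turned over. In FPKM, which is scaled to gene length and so allows genes to be compared, EPAS1 was at 20.5 ± 0.477 (SD, n = 3) and HIF1A at 87.6 ± 6.39 for BEFs. The pair stood at 636.8 ± 94.3 and 246.2 ± 74.4 for CiADCs-3d, then at 895.7 ± 55.6 and 287.0 ± 62.3 for CiADCs-6d. EPAS1 made up 19.0% ± 0.765 of the summed alpha subunit FPKM before induction, 72.5% ± 3.36 on day 3 and 75.9% ± 4.06 on day 6. That share ran from 18.2% to 19.8% over the BEFs samples and from 69.1% to 79.3% over the 6 CiADCs samples. The rank of EPAS1 among all 21512 genes by mean FPKM went from 3310 in BEFs to 110 and 72, and that of HIF1A from 713 to 265 and 240.

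**Figure D2:**
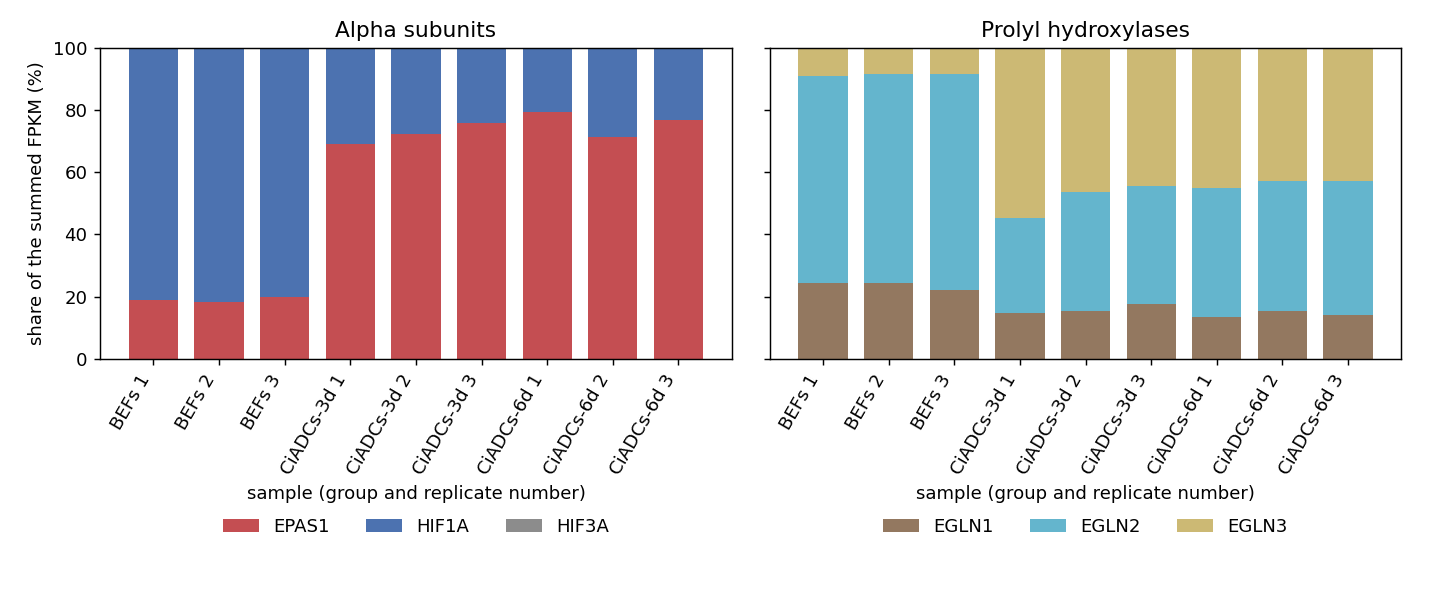
Share of each gene in the summed FPKM of the alpha subunits (left) and of the prolyl hydroxylases (right) in each of the 9 samples, in percent, where each bar adds up to 100% and HIF3A is too low to be seen. EPAS1 holds 18.2% to 19.8% of the alpha subunit sum in BEFs and 69.1% to 79.3% in CiADCs. EGLN3 holds 8.39% to 8.90% of the hydroxylase sum in BEFs and 42.7% to 54.9% in CiADCs.

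The beta subunits showed no comparable difference. ARNT (281010), the partner used by most cells and also the partner of the aryl hydrocarbon receptor, was at 46.5 to 50.2 CPM across BEFs, 45.3 to 54.95 across CiADCs-3d, and 48.0 to 63.2 across CiADCs-6d, with overlapping groups. Against BEFs it differed by 0.02 ± 0.12 (log2) on day 3 and by 0.23 ± 0.12 on day 6. The day 6 value was 0.31 without both samples numbered 1, and the difference between days was then 0.36 instead of 0.21.

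ARNT2 (533445), a beta subunit best known from neurons, stood at 3.87, 4.17 and 3.73 CPM in BEFs, 6.11, 5.88 and 7.15 on day 3, and 5.26, 2.70 and 4.87 on day 6. All CiADCs-3d samples lay above all others, and differed from BEFs by 0.70 ± 0.23 (log2). On day 6 the difference from BEFs was 0.12 ± 0.24 and the groups overlapped. Between the days ARNT2 differed by -0.58 ± 0.23, and by -0.85 without both samples numbered 1. ARNT held 97.0%, 95.3% and 97.1% of the summed beta subunit FPKM in the order of the days. Because the alpha sum went from 108.1 ± 6.86 to 883.1 ± 165 and 1183 ± 88.6 FPKM while the beta sum went from 20.8 ± 0.664 to 21.8 ± 2.61 and 24.9 ± 2.98, the alpha to beta ratio of transcripts was 5.22 ± 0.475 before induction, 40.4 ± 2.59 on day 3 and 47.7 ± 2.29 on day 6.

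Of the prolyl hydroxylases, EGLN3 (535578), which encodes PHD3, stood apart. It was at 7.13, 7.05 and 6.93 CPM in BEFs, at 71.3, 50.4 and 47.5 CPM on day 3 and at 52.7, 48.8 and 52.8 CPM on day 6. All CiADCs samples lay above all BEFs samples, and the 2 days overlapped. On the log2 scale EGLN3 was higher than in BEFs by 3.0 ± 0.16 (8.0-fold) on day 3 and by 2.87 ± 0.16 (7.31-fold) on day 6. The difference between days was -0.13 ± 0.14, and 0.01 without both samples numbered 1.

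EGLN2 (536763), which encodes PHD1, stood at 98.5, 102.3 and 100.1 CPM in BEFs, 75.1, 77.8 and 78.4 on day 3, and 97.8, 90.8 and 106.7 on day 6. The CiADCs-3d samples lay below all samples of the other groups, by -0.38 ± 0.09 on the log2 scale against BEFs, while CiADCs-6d overlapped BEFs and differed from them by -0.03 ± 0.09. From day 3 to day 6 EGLN2 was higher by 0.35 ± 0.09, and by 0.29 without both samples numbered 1. EGLN1 (534075), which encodes PHD2, the hydroxylase that sets HIF-1alpha levels in most cells, was at 35.2 to 39.1 CPM across BEFs, 32.0 to 36.5 across CiADCs-3d, and 30.6 to 34.1 across CiADCs-6d. Its log2 differences from BEFs were -0.09 ± 0.10 and -0.19 ± 0.10, and the CiADCs-6d samples lay just below the BEFs samples.

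The hydroxylase transcripts therefore had another composition in CiADCs. EGLN3 was the least abundant of the 3 in BEFs, with 8.58% ± 0.282 of their summed FPKM, and then held 48.5% ± 5.61 on day 3 and 43.5% ± 1.23 on day 6. EGLN2 went from 67.8% ± 1.44 to 35.6% ± 4.43 and 42.2% ± 0.889, and EGLN1 from 23.7% ± 1.26 to 15.9% ± 1.59 and 14.3% ± 0.926. The sum itself was 39.9 ± 1.13, 56.9 ± 7.10 and 59.0 ± 1.4 FPKM, a smaller step than that of the alpha sum.

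VHL (540957), the part of the ubiquitin ligase that recognises hydroxylated alpha subunits, was low in every sample, at 4.05 to 5.64 CPM across BEFs, 3.59 to 4.77 across CiADCs-3d, and 2.88 to 4.84 across CiADCs-6d. The groups overlapped, with log2 fold changes against BEFs of -0.14 ± 0.23 and -0.35 ± 0.23. Without both samples numbered 1 the day 6 value was -0.60. The VHL difference between the days was -0.21 ± 0.24, and -0.43 without both. At 274 counts over the 3 CiADCs-3d samples and 234 over the 3 CiADCs-6d samples, the standard error of VHL was among the widest of the group.

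CITED2 (521378), which competes with the alpha subunits for the coactivators p300 and CBP and is itself induced by HIF-1, stood at 203.1, 197.4 and 162.6 CPM in BEFs and 218.0, 195.9 and 213.3 in CiADCs-3d. It was at 349.0, 264.1 and 291.1 CPM in CiADCs-6d, above all other samples. Its log2 difference from BEFs was 0.16 ± 0.12 on day 3 and 0.68 ± 0.12 on day 6. The difference between days was 0.53 ± 0.12, and 0.39 without both samples numbered 1.

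**Figure D3:**
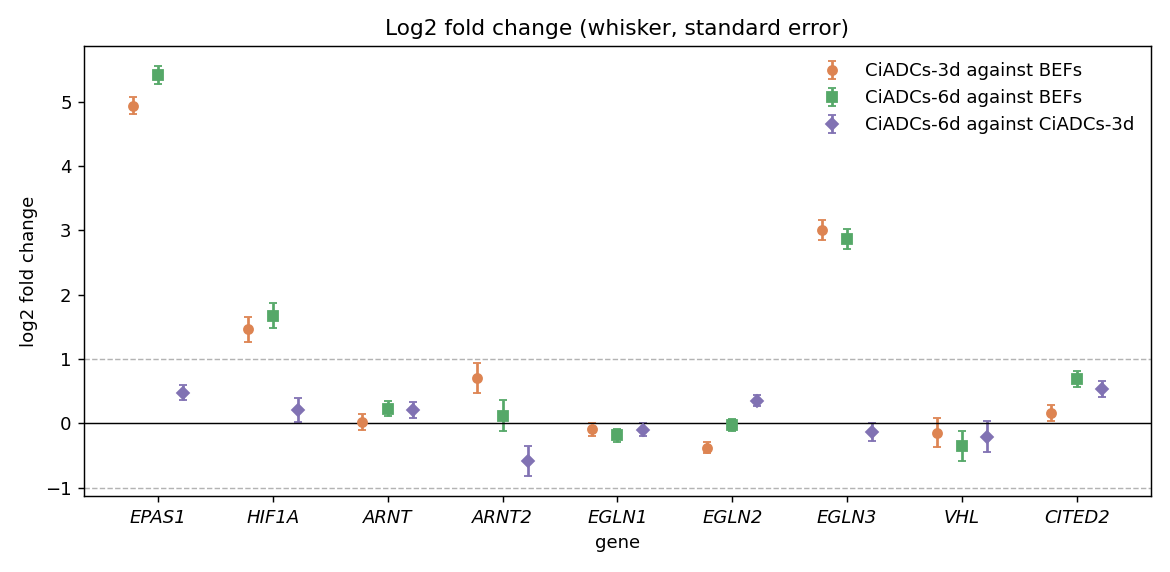
Log2 fold change of the 9 tested genes in the 3 comparisons, with the standard error as a whisker and dashed lines at 1 and -1. EPAS1, EGLN3 and HIF1A lie beyond 1 against BEFs on both days, and no gene lies beyond 1 between the days.

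Genes were called when the adjusted p of the edgeR quasi-likelihood test was under 0.05 and the absolute log2 fold change at least 1. On day 3 against BEFs, 3 of the 9 tested genes were called higher (EPAS1, HIF1A and EGLN3), where 18.2% of all genes were, and 0 were called lower, where 9.94% of all genes were. With the adjusted p alone the counts were 4 higher and 1 lower, beside 30.9% and 29.1% of all genes, and ARNT2 and EGLN2 were the added ones. ARNT2 lost its adjusted p when CiADCs-3d replicate 3 was left out (0.61), and likewise for BEFs replicate 1 (0.69) and for replicate 3 of BEFs (0.66). On day 6 against BEFs the same 3 genes were called higher and 0 lower, beside 21.9% and 13.4% of all genes. With the adjusted p alone these were 4 and 0, beside 35.6% and 31.9%, and CITED2 was the added one. Between days 6 and 3 the calls were 0 higher and 0 lower, beside 4.09% and 3.22%, and with the adjusted p alone 3 higher (EPAS1, EGLN2 and CITED2) and 0 lower, beside 14.4% and 13.6%. EPAS1 no longer passed without CiADCs-6d replicate 3 (0.38), nor EGLN2 without that sample (0.26) or CiADCs-3d replicate 3 (0.35). Both comparisons with BEFs share the BEFs samples.

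By mean FPKM, the order in BEFs was CITED2, HIF1A, EGLN2, EPAS1, ARNT, EGLN1, VHL, EGLN3, ARNT2 and HIF3A. Samples of CITED2 and HIF1A overlapped there, as did those of EPAS1 and ARNT. In CiADCs-3d the order was EPAS1, HIF1A, CITED2, EGLN3, ARNT, EGLN2, EGLN1, VHL, ARNT2 and HIF3A, with overlap among EGLN3, ARNT and EGLN2. In CiADCs-6d EGLN2 and ARNT changed places, and neighbours among EGLN3, EGLN2 and ARNT again overlapped. All other neighbours were apart in every sample. EPAS1 thus moved from place 4 to place 1, and EGLN3 from place 8 to place 4.

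Genes with the most similar profile were sought by Pearson's r on log2 CPM across the 9 samples, over 9905 genes. The samples form 3 groups, so r largely follows the group means and is given as a description. For EPAS1 they were RASSF10 (r = 0.999), ANGPTL4 (0.999) and ITPR1 (0.999), which encode a Ras-association protein, a secreted inhibitor of lipoprotein lipase and a calcium channel of the endoplasmic reticulum. RASSF10 had no count in BEFs. For HIF1A they were ATP11B (0.994), CREB5 (0.993) and MITF (0.993), for EGLN3 TMEM38A (0.999), CXCL14 (0.998) and SNX9 (0.998), and for CITED2 MAD2L2 (0.987), MED26 (0.969) and TOB2 (0.969).

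A list of 37 other genes of the pathway, without the 10 genes above, had 36 tested members. Against BEFs, 7 were called higher and 2 lower on day 3, and 8 higher and 2 lower on day 6, with median log2 fold changes of 0.09 and 0.05 (0.01 and 0.03 over all genes). Between the days 0 were called in either direction by edgeR, while 5 were higher and 5 lower with the adjusted p alone and DESeq2 called 1 lower. Shares of all genes called stand above, and the list's higher calls were 7 of 36 where 18.2% of all genes were called.

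None of the 4 other subunits of the VHL ligase on the list was called. CUL2, its scaffold, differed from BEFs by -0.39 ± 0.12 (log2) on day 3 and by -0.76 ± 0.12 on day 6. HIF1AN, the asparagine hydroxylase that blocks coactivator binding, differed by -0.47 ± 0.11 and -0.71 ± 0.11, also short of the threshold of 1. USP20, a deubiquitinase that acts on HIF-1alpha, rose from 49.3 ± 3.01 (SD) to 578.2 ± 48.7 and 734.3 ± 84.9 CPM (log2 fold change 3.55 ± 0.12 on day 3, adjusted p = 3.9e-10, edgeR). SIAH2, a ubiquitin ligase for prolyl hydroxylases, was called on day 6, at 1.18 ± 0.09 (adjusted p = 3.59e-07), and stood at 0.67 ± 0.09 on day 3. Its relative SIAH1 was called higher on both days, at 1.58 ± 0.15 and 1.08 ± 0.15. HSP90AA1, a chaperone of the alpha subunits, fell on day 3, by 1.20 on the log2 scale (SE 0.09, adjusted p = 3.69e-07).

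Among coactivators, NCOA1 rose from 35.7 ± 2.07 to 178.8 ± 28.4 and 167.5 ± 1.63 CPM (2.32 ± 0.12 on day 3, adjusted p = 1.02e-08). CITED1, a relative of CITED2, was called higher on both days but stayed low, at 0.105 ± 0.118, 4.69 ± 3.28 and 2.43 ± 1.13 CPM. Of 10 tested relatives in the bHLH-PAS family, the family to which all HIF subunits belong, AHR, the aryl hydrocarbon receptor, rose from 20.5 ± 3.60 to 99.4 ± 12.2 and 77.7 ± 15.3 CPM (2.28 ± 0.17, adjusted p = 2.2e-07). ARNTL2, a clock partner, rose from 0.247 ± 0.122 to 11.8 ± 0.473 and 11.5 ± 2.93 CPM (5.53 ± 0.30, adjusted p = 1.76e-08). Beside HSP90AA1, the lower calls were NPAS4 on both days and NPAS2 on day 6, genes of neurons and of the clock at 1.05 ± 0.189 and 4.41 ± 0.601 CPM in BEFs. CUL2, HIF1AN, SIAH1, SIAH2, CITED1, NPAS4 and NPAS2 are named after their values were seen.

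A list of 75 textbook HIF target genes, again without the 10 genes, had 70 tested members, which moved in both directions. On day 3, 17 were called higher and 16 lower against BEFs, with a median log2 fold change of -0.17. On day 6 the counts were 25 and 15, and the median was -0.06. With the adjusted p alone the counts were 27 and 31 on day 3 and 31 and 29 on day 6. The shares of all genes called were 18.2% and 9.94% on day 3 and 21.9% and 13.4% on day 6.

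**Figure D4:**
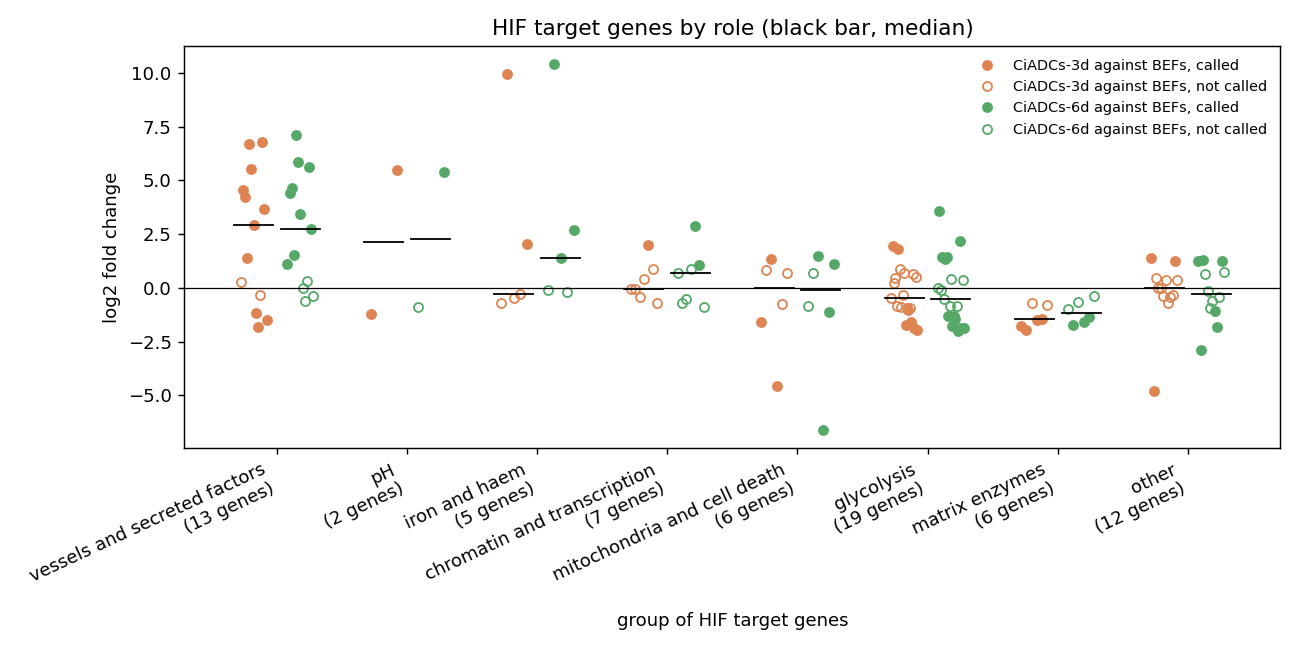
Log2 fold change against BEFs of 70 HIF target genes, grouped by role, on day 3 (orange) and day 6 (green), with filled points for called genes and a black bar for the median. Vessel and secreted factors lie mostly above 0, matrix enzymes below 0, and glycolysis genes on both sides; the uppermost point of the iron group is TF, which had no count in BEFs, so that its height depends on the prior count.

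Vessel and secreted factors were called higher for 8 of 13 tested genes on day 3 and 9 of 13 on day 6. EDN1, FLT1, PGF and STC1 were among them on both days but stayed low, at 1.5, 4.3, 2.99 and 5.9 CPM on day 3. ANGPTL4 rose from 5.78 ± 0.776 to 592.5 ± 84.7 and 795.5 ± 119 CPM (log2 fold change 6.68 ± 0.18 on day 3, adjusted p = 8.42e-11). IGFBP3, a carrier of insulin-like growth factors, rose from 55.2 ± 4.37 to 6091 ± 816 and 2757 ± 701 CPM (6.79 ± 0.21, adjusted p = 1.71e-10), and ADM, the gene for the vessel-relaxing peptide adrenomedullin, from 159.1 ± 8.93 to 3744 ± 340 and 3410 ± 295 CPM (4.56 ± 0.13, adjusted p = 8.38e-11). VEGFA, the main growth factor of blood vessels, was at 161.7 ± 1.12, 194.0 ± 86.6 and 353.0 ± 75.3 CPM. It was not called on day 3 (0.26 ± 0.25, adjusted p = 0.378) and was called on day 6 (1.13 ± 0.25, adjusted p = 0.0016). Among those called lower on day 3 were CXCR4 at -1.49 ± 0.35, with only 1.84 CPM in BEFs, and STC2 at -1.16 ± 0.43. By edgeR, 0 were called lower on day 6. The STC2 call had an adjusted p of 0.0335 and was lost when any 1 of 6 samples was left out (each BEFs sample, replicates 2 and 3 of day 3, and replicate 3 of day 6), with values of -1.22 to -0.76.

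In the glycolysis group of 19 genes, 2 were called higher and 5 lower on day 3, and 5 higher and 7 lower on day 6. With the adjusted p alone the counts were 7 and 11 on day 3 and 6 and 10 on day 6. Among all genes that rule gave 30.9% and 29.1% on day 3 and 35.6% and 31.9% on day 6. The glucose transporter SLC2A3 was higher on both days, at 1.95 ± 0.21 and 3.56 ± 0.22 on the log2 scale, as was PFKFB3, which makes an activator of glycolysis, at 1.81 ± 0.19 and 1.34 ± 0.19. ENO2, HK2 and PFKFB4 were also called higher on day 6, at 2.19 ± 0.17, 1.45 ± 0.14 and 1.44 ± 0.22. They already stood at 0.66 ± 0.17, 0.44 ± 0.13 and 0.88 ± 0.22 on day 3, short of the threshold of 1. Called lower on day 3 were the lactate exporter SLC16A3 (-1.95 ± 0.16), the pyruvate dehydrogenase kinase PDK1 (-1.86 ± 0.17), TPI1 (-1.73 ± 0.10), ENO1 (-1.57 ± 0.10) and PGK1 (-1.03 ± 0.09). The PGK1 value was -0.98 without CiADCs-3d replicate 1. On day 6 all 5 were called lower again, and so were PFKP (-1.30 ± 0.11) and GAPDH (-1.32 ± 0.10). PFKP and GAPDH had been at -0.90 ± 0.11 and -0.95 ± 0.10 on day 3, short of the threshold. ENO1 and ENO2 encode the same enzyme step, and on day 6 ENO1 was lower by -1.99 ± 0.10 (adjusted p = 6.87e-09) while ENO2 was higher.

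Matrix enzymes were called lower for 4 of 6 genes on day 3, the collagen hydroxylases P4HA2 (-1.94 ± 0.11, adjusted p = 2.82e-08), P4HA1 (-1.78 ± 0.21) and PLOD2 (-1.49 ± 0.18) and the cross-linking enzyme LOX (-1.43 ± 0.15). On day 6, 3 of the 6 were, P4HA2, PLOD2 and LOX, and 0 were called higher on either day. P4HA1 fell just short of the threshold on day 6, at -0.9993 ± 0.20 (adjusted p = 0.000778, edgeR). With the adjusted p alone, 6 of the 6 were lower on day 3 and 5 on day 6. That rule gave 29.1% and 31.9% lower among all genes. Of the 12 fibroblast markers, 6 were called lower on day 3 and 7 on day 6, and 0 higher by edgeR. Of all genes, 9.94% and 13.4% were called lower. Among the collagen chains on which these enzymes act, COL1A1 and COL1A2 went from 22140 and 16290 CPM to 6183 and 5506 on day 3 and 2773 and 2522 on day 6, whereas COL3A1 was at 10750, 12390 and 9112 CPM and was not called. PDGFRA and PDGFRB, receptors of fibroblasts, were at 730.0, 1358 and 823.2 CPM and at 193.4, 314.2 and 267.0 CPM, short of the threshold of 1 with log2 differences of 0.90 ± 0.13 and 0.70 ± 0.20 on day 3. The part of these changes in the enzymes' values was not tested.

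In the mitochondrial and cell death group of 6, NDUFA4L2, a respiratory chain protein, fell from 84.0 ± 6.73 to 3.58 ± 2.48 and 0.874 ± 0.321 CPM (-4.57 ± 0.37 on day 3, adjusted p = 4.76e-07). BNIP3, a mitophagy receptor, was also called lower on day 3 (-1.58 ± 0.16) and FAM162A on day 6 (-1.14 ± 0.18). DDIT4, an inhibitor of mTOR, was called higher on both days (1.33 ± 0.31 and 1.48 ± 0.31) and MXI1 on day 6 (1.11 ± 0.17, and 0.96 without CiADCs-6d replicate 2). The DDIT4 value on day 3 was 0.88 without CiADCs-3d replicate 1. The carbonic anhydrases went opposite ways on day 3, with CA12 from 5.21 ± 0.190 to 231.3 ± 21.6 CPM (5.47 ± 0.20, adjusted p = 6.28e-10) and CA9 at -1.21 ± 0.24.

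Of 5 genes of iron and haem, 2 were called higher on day 3 and 3 on day 6. The iron importer SLC11A2 was at 2.05 ± 0.18 and 2.67 ± 0.19 on the log2 scale. TF, the gene for transferrin, had no count in BEFs and 117 to 128 counts per CiADCs-3d sample, at least 132-fold higher against 3 counts over the BEFs group, and at least 185-fold on day 6. HMOX1, the haem oxygenase, was the third, at 1.39 ± 0.27 on day 6, and at 0.92 without CiADCs-6d replicate 1. Among 7 chromatin and transcription genes, BHLHE41 was called higher on both days (2.0 ± 0.19 and 2.88 ± 0.19) and RORA on day 6 (1.07 ± 0.20). Of the remaining 12, NDRG1 and the lipid droplet protein HILPDA were higher on both days (1.37 ± 0.10 and 1.26 ± 0.25 on day 3) and ERO1A on day 6 (1.28 ± 0.31). ANKRD37, at 1.5 ± 0.579 CPM in BEFs, was called lower on both days, and AK4 and AKAP12 on day 6 (-1.08 ± 0.17 and -1.82 ± 0.20). On day 6, ERO1A and RORA were at 0.94 and 0.91 without CiADCs-6d replicate 2, RORA at 0.99 without BEFs replicate 3, and AK4 at -0.91 without CiADCs-6d replicate 1.

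Between days 6 and 3, 6 targets were called higher and 3 lower, beside 4.09% and 3.22% of all genes, with a median log2 fold change of 0.11 (0.0059 over all genes). Without both samples numbered 1 the higher calls were 12. HMOX1 (1.84 ± 0.28, adjusted p = 0.001), SLC2A3 (1.61 ± 0.20, adjusted p = 0.000321) and ENO2 (1.53 ± 0.17, adjusted p = 0.000158) rose, and were at 1.16, 1.95 and 1.68 without both samples numbered 1. HK2 and CXCR4, at 1.01 ± 0.13 and 1.10 ± 0.36, were called close to the threshold. HK2 lost the call without replicate 2 or 3 of either day, at 0.87 to 0.998, and CXCR4 without any 1 of 8 samples, all but CiADCs-6d replicate 2, at 0.71 to 1.19. Without both samples numbered 1, HK2 was at 1.17 and still called, and CXCR4 at 0.69 and not called. NDUFA4L2 (-2.04 ± 0.49, adjusted p = 0.00999), AKAP12 (-1.40 ± 0.19, adjusted p = 0.000583) and IGFBP3 (-1.14 ± 0.17, adjusted p = 0.00077) fell, and were at -1.37, -1.74 and -1.52 without both, each still called. The NDUFA4L2 samples of the days overlapped at a low level, at 1.165 to 6.11 CPM on day 3 and 0.686 to 1.245 CPM on day 6. Target genes outside the 4 with the largest change per direction and comparison are named after their values were seen.

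Markers of other cell types moved in both directions, and no test related them to EPAS1. Of 14 endothelial markers, 8 were tested, and 4 were called higher and 1 lower on day 3, and 4 and 2 on day 6. Among all genes, 18.2% and 9.94% were called on day 3 and 21.9% and 13.4% on day 6. Only markers that passed the filter on low counts were tested, ROBO4 and ESAM through their CiADCs counts. The 14 markers summed to 74.9 to 84.8 CPM in BEFs, 350.7 to 503.4 on day 3 and 223.8 to 349.3 on day 6. Most of the sum in CiADCs was VWF, at 7.75, 367.3 and 244.7 CPM in the order of the groups. ROBO4, a receptor of vessel cells, had 0 counts over the BEFs group and 199 and 150 over the CiADCs groups, at least 72.5-fold higher on day 3 against 3 counts over the group. TIE1 had 33, 81 and 170 counts and was called higher on both days, TEK had 150, 297 and 219 and was called on day 3, and ESAM had 4, 12 and 122 and was called on day 6. EGFL7, with 201, 42 and 43 counts, was called lower on both days, and ERG, with 4090, 2217 and 1300, on day 6. PECAM1, with 293, 170 and 156 counts, was not called. The defining marker EMCN had no count, CDH5 had 29, 1 and 5 counts, CLDN5 0, 0 and 7, and KDR 1, 58 and 5. Of 8 blood cell markers, 3 were tested and called higher on day 3, where 18.2% of all genes were. The 8 summed to 1.17 to 1.87, 45.8 to 47.7 and 64.8 to 80.6 CPM. In CiADCs most of that was CD14, while PTPRC had no count. Epithelial markers summed to 65.4 to 90.6, 93.4 to 119.3 and 91.9 to 105.5 CPM and neuronal markers to 52.5 to 53.8, 12.0 to 14.1 and 10.4 to 17.7 CPM. Of 5 tested epithelial markers, 2 were called higher (CDH1 and ESRP1) and 2 lower (KRT5 and KRT8) on day 3. On day 6 it was 2 and 1, with KRT5 not called. Of 4 tested neuronal markers, 1 was called higher and 2 lower on day 3, and 2 and 2 on day 6. Whether cells of these types were present, and their part in the HIF gene values, was not tested.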

How the data were processed

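Expression was measured by RNA sequencing in 9 samples of 3 groups (BEFs, CiADCs-3d, CiADCs-6d). The expected counts used here were estimated per gene and deposited by the authors without normalization, beside FPKM that the authors had scaled to gene length and library size. HISAT2 2.2.4, RSEM, StringTie 1.3.1 and fastp 0.18.0 appear in the submitters' processing notes. The study's methods name TopHat and HTSeq instead, and the genome build is not given in the sources used here, so no coordinates are printed. Libraries are described as made with a ribosomal RNA removal kit in the labels and as poly(A)-selected in the methods, and counting by strand is not stated, so reads of antisense or overlapping genes cannot be told apart.

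Counts were rounded and filtered with filterByExpr (minimum count of 10, minimum total of 15), which kept 14020 genes and removed 7492. They were scaled by TMM and fitted with the quasi-likelihood test of edgeR 4.0.16 in R 4.3.3, all 9 samples together, with 1 coefficient per group and Benjamini-Hochberg adjustment over all tested genes. Calls needed an adjusted p under 0.05 and, in size, a log2 fold change of 1 or more. Standard errors were derived from the F statistic as the size of the fold change (log2) over the root of F. CPM are library-scaled counts, given as mean ± SD. Depth covers counting error only: a gene at 3 counts or fewer in a group is at the floor.

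List genes were matched to the table by NCBI Gene ID, through RefSeq symbols. The members, the lists and the alternatives were chosen with earlier results of these data known. Named were, per list, direction and comparison, up to 4 called genes with the largest change and 10 CPM or more where they were higher. The 3 genes with the highest r per member are printed for EPAS1, HIF1A, EGLN3 and CITED2 only. Other pathway and target names are marked as chosen after their values were seen, and the naming of marker genes followed no such rule. One item that the counts of called genes include is not reported here. Alternatives were DESeq2 1.42.0, other scalings and filters, limma 3.58.1 on log2 FPKM (pseudocounts of 1 and 0.1), a replicate block, only the compared groups, the adjusted p alone and samples left out. The fits were tested on simulated data in which 200 genes were changed and all groups had the same spread. Far more genes were called in the real samples, so that test does not cover their setting.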

Additional observations from a re-analysis of the deposited data

How the results depend on the processing

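Of 534 alternative values for the 27 log2 fold changes of the 9 tested HIF genes, 524 kept their direction and their side of the threshold, EPAS1, HIF1A and EGLN3 against BEFs among them, and 10 turned sign, all for differences near 0. ARNT on day 3 ran from -0.0525 to 0.0679 over the fits that left out 1 sample and was -0.0503 without both samples numbered 1. ARNT2 on day 6 ran from -0.0876 to 0.362 and was -0.0908 without both. EGLN2 on day 6 ran from -0.104 to 0.021, and was 0.0083 with total-count scaling and 0.0217 with at least 10 counts in every sample. EGLN3 between the days ran from -0.25 to 0.0324 and was 0.0062 without both. VEGFA on day 3 ran from -0.14 to 0.48 and was -0.13 without both.

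Of 378 alternative counts, 348 stayed within 1.5 times. With the adjusted p alone, the HIF genes gave 1 lower on day 3 and 3 higher between the days. The pathway list gave 11 higher and 8 lower on day 3, 13 and 11 on day 6, and 5 and 5 between the days. The targets gave 27 higher and 31 lower on day 3, 29 lower on day 6, and 17 higher and 12 lower between the days. Pathway genes called lower were 1 on day 3 and 0 on day 6 with at least 10 counts in every sample and in all 3 limma fits (1 of them with no filter and 17757 genes tested), and 5 were called higher on day 6 with at least 10 counts in every sample. Between the days, pathway genes called lower were 1 with DESeq2, 1 with no filter, 0 to 2 with 1 sample left out, and 5 without both samples numbered 1. Targets called higher between the days were 3 (without CiADCs-3d replicate 2) to 9 with 1 sample left out and 12 without both samples numbered 1, and targets called lower 3 to 5 (without CiADCs-6d replicate 1). The cause of these shifts was not tested.

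The replicate numbers did not pair the samples: deviations of same-numbered samples from their group means correlated at -0.03 to 0.02 for CiADCs-3d and BEFs, 0.01 to 0.15 for CiADCs-6d and BEFs and -0.37 to -0.13 for both days. With a replicate block EPAS1 differed from BEFs by 4.93 and 5.41, HIF1A by 1.46 and 1.68 and EGLN3 by 2.98 and 2.87, and no call on the HIF genes changed. With 3 samples a group, HIF3A could not be compared at its depth, and VHL and ARNT2, at 234 to 404 counts over a group, only coarsely.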

Other observations

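The table's own annotation gives a second view of the pathway. Its KEGG entry for HIF-1 signaling holds 113 genes, among them 6 of the 10 HIF genes (not EPAS1, HIF3A, ARNT2 or CITED2) and 22 of the 75 targets. Of its 94 tested genes, 17 were called higher and 9 lower on day 3, and 22 and 10 on day 6, close to the shares over all genes of 18.2% and 9.94% on day 3 and 21.9% and 13.4% on day 6. The median log2 fold changes were -0.06 and -0.11. Its GO term for the response to hypoxia holds 54 genes, 4 of the 10 HIF genes among them (HIF1A and the 3 prolyl hydroxylases). Of 46 tested, 12 were called higher and 7 lower on day 3, and 17 and 6 on day 6, beside the same shares of all genes, with medians of 0.04 and 0.16. The study itself reported a GO term of this name as enriched in CiADCs, in an analysis of upregulated genes. Enrichment was not tested here. EPAS1, the HIF gene with the highest fold change in these samples, was thus in neither annotation.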
